A study of Rattus norvegicus with 9 samples.

Results

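Cells of the proximal tibia were compared between an osteotomy site that had received shock waves (TOE_4d_4h) and one that had not (TO_4d_4h), both taken on postoperative day 4 at the 4 h time point. Each condition was 1 library, and its members were the cells with at least 200 detected genes and at most 20% of their UMIs (unique molecular identifiers, 1 per captured transcript) from mitochondrial genes. The rule kept 26867 cells, 12915 from the TO library and 13952 from the TOE library, of 115442 cells kept over the 8 libraries analysed. All animals were Sprague-Dawley rats, an outbred stock, aged 6 to 8 weeks. Each carried a 3 mm circular cut through the cortex of the proximal tibia that left the bone chip in place, and a 4 mm full-thickness skin wound on the back of the hind foot. Radial shock waves were given through the skin over the osteotomy on days 2 and 4, so the TOE animal had received 2 sessions and was sampled 4 h after the second, while the TO animal received none. The study gave the sessions under brief isoflurane anaesthesia, and whether unstimulated animals were anaesthetised at the same times is not stated. The labels name as many rats as samples, so the treatment, the animal and the library cannot be told apart, and no test of the condition was possible. The intervals below cover counting error only.

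Bone marrow, which fills the proximal tibia, is the site where B lymphocytes, neutrophils and monocytes are made. Neutrophils acquire their granules in order, first the primary (azurophilic) granules with myeloperoxidase and elastase, then the secondary granules with lactoferrin and lipocalin 2, before they leave as mature cells that respond to chemokines. Monocytes leave the marrow under Ccr2 and enter wounds, where they can become macrophages. Endothelial cells line the marrow's arteries and its sinusoids, the wide thin-walled vessels through which blood cells exit, and they supply niche factors such as Cxcl12. Stressed and injured tissue is known to induce immediate-early transcription factors, heat shock chaperones and NF-kB target genes within hours, which is why these groups were followed in every cell class.

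The TO library held 119493103 UMIs over 12983 barcodes and the TOE library 136369567 UMIs over 14055 barcodes. After filtering, the median cell held 5696 UMIs in TO and 5519 in TOE. The 2 libraries shared 43 cell barcodes, 0.333% of the kept TO cells and 0.308% of the kept TOE cells. Cells were assigned to 17 classes by their marker genes, and a marker counted as present only above an allowance for free RNA. The same markers had set the classes, so their levels within a class are no independent check of it. In both libraries the markers were higher within the class than in the remaining cells for 9 of 9 B cell markers, 10 of 10 monocyte, macrophage, T cell and endothelial markers, and 9 of 10 neutrophil markers. The exception was Ltf (lactoferrin), at 0.331 UMIs per 1000000 in TO neutrophils and 1.06 in TOE neutrophils. The 10.5% of TO cells and 9.73% of TOE cells that reached 3 markers of no class were left unassigned.

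In percentage points of all cells, monocytes and neutrophils differed most between the libraries. Monocytes were 10.3% of the TO cells (1331 cells) and 17.9% of the TOE cells (2500 cells), a ratio of 1.74 with a 95% exact interval of 1.63 to 1.86. The TOE share lay above those of all 6 other libraries, which ran from 5.12% to 11.4%. Neutrophils went the other way, with 17.1% of TO cells (2205) and 10.2% of TOE cells (1423), a ratio of 0.597 (0.558 to 0.639). The 6 other libraries held 7.88% to 27.0% neutrophils, so both values lay inside their range. There were 0.604 monocytes per neutrophil in TO and 1.76 in TOE, against 0.189 to 1.12 in the other libraries. A library shows shares only, so more cells of one class and fewer of another cannot be told apart.

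B cells made up 49.3% of TO cells (6362) and 49.0% of TOE cells (6839), a ratio of 0.995 (0.962 to 1.03), between shares of 44.7% and 59.4% elsewhere. Macrophages were 0.867% (112 cells) and 0.896% (125 cells), with a ratio of 1.03 (0.794 to 1.35). T cells were 0.480% of the TO cells (62) and 0.874% of the TOE cells (122), a ratio of 1.82 (1.33 to 2.51), and both values lay inside the 0.129% to 0.939% of the other libraries. Endothelial cells were 0.534% (69 cells) and 0.516% (72 cells), a ratio of 0.966 (0.685 to 1.36). Mesenchymal cells, the stromal and bone-forming fraction, were 1.29% and 1.28%. Of the described classes, monocytes, neutrophils and T cells had intervals that did not reach equal shares, while those of B cells, macrophages and endothelium held equal shares.

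**Figure D1:**
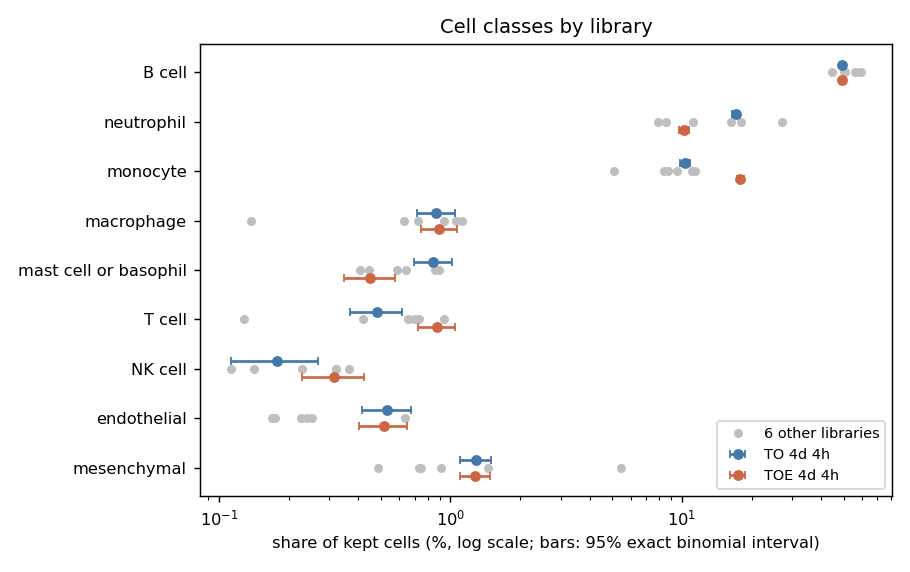
Share of cells in each class (horizontal axis, percent of kept cells, log scale) in TO 4d 4h and TOE 4d 4h, with 95% exact binomial intervals that cover counting error, and grey marks for the 6 other libraries. The TOE monocyte share of 17.9% lies right of every grey mark, while the neutrophil shares of 17.1% and 10.2% lie among them.

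At day 2, 4 h neutrophils and T cells differed in the same direction as here and monocytes in the other. At day 4, 24 h all of these classes differed in the other direction. For monocytes the TOE to TO ratio was 0.838 at day 2, 4 h and 0.612 at day 4, 24 h, against 1.74 here. For neutrophils it was 0.472 and 1.66, and for T cells 1.56 and 0.137. Each pair is again 1 library a side, so these ratios are set side by side without a test.

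Gene levels were taken as CPM, the UMIs of a gene summed over the cells of a class per 1000000 UMIs of that class, and differences as log2 ratios of TOE over TO. Levels are given as TO and then TOE, and where 1 cell gave a large share of a gene's UMIs the share refers to the library with more of them. Monocytes (median 13504 UMIs a cell in TO and 14926 in TOE) had 13488 genes with at least 50 UMIs over the pair. Of these, 221 (1.64%) were at least 2-fold higher in TOE and 258 (1.91%) at least 2-fold lower. Among 6363 genes at 20 or more CPM that no single cell dominated, 124 (1.95%) had an interval wholly past 1.5-fold higher and 143 (2.25%) wholly past 1.5-fold lower. For 46 of the 124 the TOE level was above all 6 other libraries, and for 21 the TO level was below all of them. For 48 of the 143 the TOE level was below all others, and for 43 the TO level was above them. These genes were picked for a difference within the pair, which by itself favours such outer positions. The same counts over all 6363 genes were not taken, so nothing is read from them.

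Several genes with large differences in TOE monocytes, chosen after their values were seen and belonging to no list, are given singly. Slpi, a secreted inhibitor of neutrophil elastase, was at 184 CPM in TO and 962 in TOE, 5.24-fold higher (log2 2.39, 95% interval 2.34 to 2.44). The 6 other libraries ran from 102 to 1647, so its TOE level was not the highest of the series. Timp1, an inhibitor of matrix metalloproteinases, was at 39.2 and 165 (4.22-fold), and Thbs1, the matricellular glycoprotein thrombospondin 1, at 17.0 and 73.8 (4.34-fold, log2 interval 1.96 to 2.28). The Thbs1 level of the other libraries ran from 9.98 to 168. Timp1 was higher in TOE in all 5 classes in which it was measured, with a lowest log2 ratio of 0.66. Sdc1, a cell-surface heparan sulfate proteoglycan, was at 14.9 and 45.7, above the 2.27 to 42.2 of the other libraries. Adam8, a membrane metalloprotease of leukocytes, was at 6.87 and 21.7.

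The iron handling list was described by its sum because a few abundant genes carry it. It summed to 7136 CPM in TO and 10686 in TOE, with 3783 to 8503 elsewhere, while its median log2 ratio was 0.04 over 11 genes. Hp (haptoglobin, which binds free haemoglobin) was at 106 and 477, Hmox1 (heme oxygenase 1, which degrades heme) at 257 and 439, and Fth1 (the ferritin heavy chain, which stores iron) at 6218 and 9206. For Hmox1 both libraries of the pair lay above the 34.5 to 164 of the others. Slc40a1, the iron exporter ferroportin, was lower, at 5.19 and 2.96. Cd36, a scavenger and fatty acid receptor, was at 27.2 and 52.2.

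The list of glycolysis and hypoxia genes was also higher in the sum, at 5865 CPM in TO and 8425 in TOE, against 4663 to 8235 in the other libraries. Ldha, which reduces pyruvate to lactate, was at 647 and 1276 (log2 0.98), Gapdh at 1656 and 2732, Tpi1 at 180.2 and 315, and Pgam1 at 315 and 492. Over the 24 measured genes of the list 14 were higher, none at least 2-fold, with a median of 0.10 against -0.07 over all genes measured in monocytes. Nuclear genes of the respiratory chain were higher for 16 of 19, with a median of 0.26.

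Inflammatory genes in monocytes did not share 1 direction. Of the 26 NF-kB and inflammatory genes 11 were higher and 15 lower, with a median of -0.12. The neutrophil chemokine Cxcl3 was at 89.5 and 201, and the cytokine Il6 at 13.6 and 29.0, above the 1.65 to 23.4 of the other libraries. Ptgs2, the inducible prostaglandin synthase, was at 74.7 and 129, and the cytokine Il1a at 24.1 and 38.9. Interferon-stimulated genes were lower for 15 of 22, with a median of -0.23. The antiviral GTPases Mx1 (7.07 and 1.84) and Mx2 (3.02 and 0.502) and the ubiquitin-like Isg15 (5.78 and 1.505) were lower, with a single cell giving 22.4% of the Mx1 UMIs and 21.3% of the Mx2 UMIs. Oas1a, which senses double-stranded RNA, was higher, at 3.46 and 15.0.

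**Figure D2:**
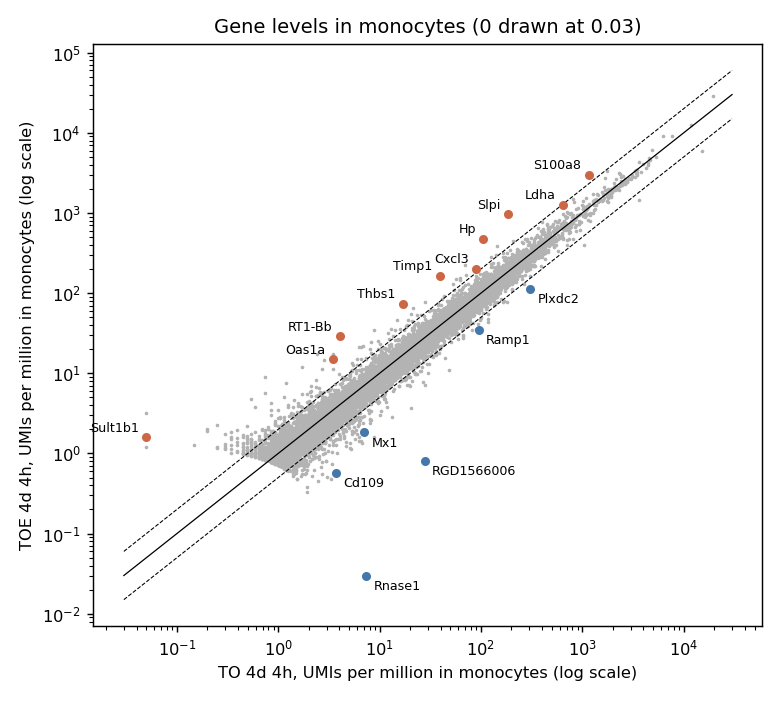
Gene levels in monocytes, TO 4d 4h on the horizontal and TOE 4d 4h on the vertical axis, in CPM on log scales, with each grey dot a measured gene, the solid line equal levels and the dashed lines 2-fold. Slpi (184 and 962), Hp (106 and 477) and Thbs1 (17.0 and 73.8) lie above the upper dashed line and Plxdc2 (306 and 114) below the lower one.

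Of the neutrophil lists, the primary granule genes were higher in TOE monocytes, at 10 of 11 measured, with 2 past 2-fold and a median of 0.65. Their sum of 1229 CPM in TO was below the 1711 to 2733 of the other libraries, and the 2117 in TOE lay inside that range. The secondary granule genes were split, with 5 higher and 6 lower and a median of -0.01, as were the genes of mature neutrophils, with 8 higher and 9 lower and a median of -0.01. S100a8, a calcium-binding protein of neutrophils and monocytes, was at 1155 and 2991, and its TO level was below the 1792 of the lowest other library. Ctsc, the protease that activates granule serine proteases, was at 61.6 and 155, and the defensin RatNP-3b at 208 and 445, with 18.8% of its UMIs from 1 cell. The 10 neutrophil markers summed to 3446 CPM in TO monocytes and 6881 in TOE monocytes, with 1 and 0 of them at 0 UMIs, while over the whole libraries they summed to 37126 and 31191. The part of neutrophil RNA or doublets in these values was not tested, and without the cells with high doublet scores the primary granule median was 0.30.

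Among genes lower in TOE monocytes were Plxdc2 (306 and 114), Ramp1 (94.97 and 34.9), which partners the receptor of the neuropeptide CGRP, and the complement component C3 (89.6 and 35.2). Plxdc2 and Ramp1 in TOE lay below all 6 other libraries. The coagulation factor subunit F13a1 was at 59.7 and 26.8 and the scavenger receptor Colec12 at 65.9 and 29.5. F13a1 was among the markers that set the monocyte class, and these did not share 1 direction. Ly86 (101 and 78.3) and Fn1 (1321 and 1115.5) were lower too. Higher were Cd14, Vcan, Ccr2, Csf1r, Ctss, Cx3cr1 and Lyz2, the last at 19347 and 29182. Rnase1, a secreted ribonuclease, had 150 UMIs in TO and 0 in TOE, with an upper end of the log2 interval at -6.38. Cd109, a cell-surface anchored protein, was at 3.71 and 0.573. The genes that the fixed rule named as the most increased had few UMIs in TO. Sult1b1, a sulfotransferase, had 1 and 67 UMIs (log2 4.44, interval 2.49 to 10.34), and Car4, a membrane carbonic anhydrase, had 4 and 85. Rhox5, a homeobox gene, had 15 and 377 UMIs. RT1-Bb, a class II histocompatibility chain that was not among those most increased genes, had 82 and 1220. Dmp1, a matrix protein of osteocytes, had 1 and 132, with 86.4% of them in 1 cell.

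Neutrophils (median 6541 UMIs a cell in TO and 8096 in TOE) differed in their granule genes and their maturity. Of 11847 genes measured, 99 (0.836%) were at least 2-fold higher in TOE and 206 (1.74%) at least 2-fold lower. This split depended on the processing, with 136 higher and 162 lower when the median log2 ratio was set to 0, 284 and 294 when each cell was given equal weight, and 204 and 182 with any UMI of a marker taken as presence. Among 5341 abundant genes that no cell dominated, 45 (0.843%) were wholly past 1.5-fold higher and 123 (2.3%) wholly past 1.5-fold lower. TOE lay above all 6 other libraries for 25 of the 45 and below all of them for 44 of the 123. TO lay below all others for 0 of the 45 and above them for 32 of the 123. As in monocytes, the same counts over all 5341 genes were not taken, and nothing is read from them.

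Primary granule genes were higher in TOE neutrophils for all 12 measured, 4 of them at least 2-fold, with a median log2 ratio of 0.66 against -0.09 over all measured genes. Mpo, the myeloperoxidase that makes hypochlorous acid, was at 25.9 CPM in TO and 89.6 in TOE (log2 1.79, interval 1.64 to 1.95). Elane, neutrophil elastase, was at 30.0 and 101, and Prtn3, proteinase 3, at 10.7 and 33.7. A single cell gave 23.4% of the Mpo and 24.4% of the Elane UMIs, and about as much of Prtn3. Serpinb1a, an intracellular inhibitor of such proteases, was at 2019 and 4531, with no cell above 0.761%. The TOE level of Mpo was above all 6 other libraries, whose highest value was 61.8. For Elane the highest other value was 90.6, and the excess of TOE over it was smaller than what the single cell gave. Prtn3 in TOE was below 2 other libraries, the highest at 54.1.

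Of 11 secondary granule genes 9 were higher, with a median of 0.17. Camp, Ngp, Lcn2 and Mmp8 of this list were also markers that set the neutrophil class, so the list is not independent of it. Hp was at 706 and 2262 and Lcn2, lipocalin 2, which binds bacterial iron carriers, at 2944 and 7453, and both TOE levels were above all other libraries. Cd177, a surface glycoprotein stored in these granules, was at 541 and 746, and Pglyrp1, a peptidoglycan-binding protein, at 2720 and 3678. Alpl, alkaline phosphatase, was at 63.2 and 251 (log2 1.99, interval 1.90 to 2.09).

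Genes of mature neutrophils were lower in TOE for 16 of 17, with a median of -0.50. Their sum of 5171 CPM in TO was above the 3460 to 4904 of the other libraries, and the 3821 in TOE lay inside that range. Csf3r, Cxcr2 and Mmp9 of this list were also markers that set the class. The hydroxybutyrate and niacin receptor Hcar2 was at 661 and 364, the C-type lectin receptors Clec4e at 191 and 109 and Clec4d at 231 and 132, and the atypical chemokine receptor Ccrl2 at 25.02 and 15.9. Immediate-early genes were lower for 19 of 26 (median -0.26), with Fosb at 582 and 265, Klf2 at 569 and 319 and Ier5 at 151 and 88.9, while Nr4a2 was at 7.73 and 12.3. Heat shock chaperones had a median of -0.22. NF-kB genes had a median of -0.18 over the whole class. Within immature neutrophils 15 of 24 were higher, with a median of 0.25, and within mature neutrophils 5 of 21, with a median of -0.40. Nos2, the inducible nitric oxide synthase, was at 1005 and 593. Respiratory chain genes were higher for 19 of 19 (median 0.25), and Sdhb, a subunit of complex II, was at 35.3 and 51.7, outside the 39.3 to 47.2 of the other libraries on either side.

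Immature neutrophils, with at least 2 of Ltf, Camp and Ngp and fewer than 2 of Cxcr2, Csf3r and Il1b, were 40.6% of TO neutrophils (895 cells, 95% interval 38.5% to 42.7%) and 49.9% of TOE neutrophils (710 cells, 47.3% to 52.5%). The reverse pattern, mature neutrophils, was 19.5% (429 cells) and 16.2% (231 cells). The remaining cells had neither pattern (35.8% and 27.3%) or both (4.17% and 6.61%). Ltf was near 0 in neutrophils (0.331 and 1.06 CPM), so the immature pattern rested mainly on Camp and Ngp. With each cell thinned to 1000 UMIs the immature shares were 38.7% and 49.8% and the mature shares 6.13% and 5.398%. The immature share was thus higher at equal depth, while the mature shares overlapped within their intervals after thinning. Cycling cells, with Mki67 or Top2a, were 16.1% and 18.2% unthinned and 4.87% and 3.94% thinned, and no order is read from them.

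Over all neutrophils the primary granule median was 0.30 without cycling cells and 0.40 with each cell given equal weight. The granule differences were also present within the immature and mature groups, while cells with neither or both patterns were not read separately. The whole-class primary granule median of 0.66 was below those of both groups. Within immature neutrophils 12 of 12 primary granule genes were higher, with a median of 1.57 against -0.10 over all genes measured there. Within mature neutrophils 8 of 11 were higher, with a median of 1.31 against -0.02 over all genes measured there. The proteases differed between the stages: Elane was at 24.99 and 149 CPM in immature cells, and at 49.2 in both libraries in mature cells (log2 interval -0.44 to 0.43). A single TOE cell gave a large share of the Elane UMIs of the whole class, and its part in the immature level was not tested. Secondary granule genes had medians of 0.27 in immature and 1.02 in mature cells. Lcn2 was at 5164 and 10882 in immature cells and at 188 and 1284 in mature ones, and Hp at 1020 and 3031 and then at 377 and 1284. Genes of mature neutrophils had medians of -0.19 and -0.40. The genes that set the stage were left out of these medians, while the class markers Lcn2, Mmp8 and Mmp9 were kept in. S100a9, the partner of S100a8 and the most abundant of the markers, was at 149361 and 149170 in immature neutrophils.

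**Figure D3:**
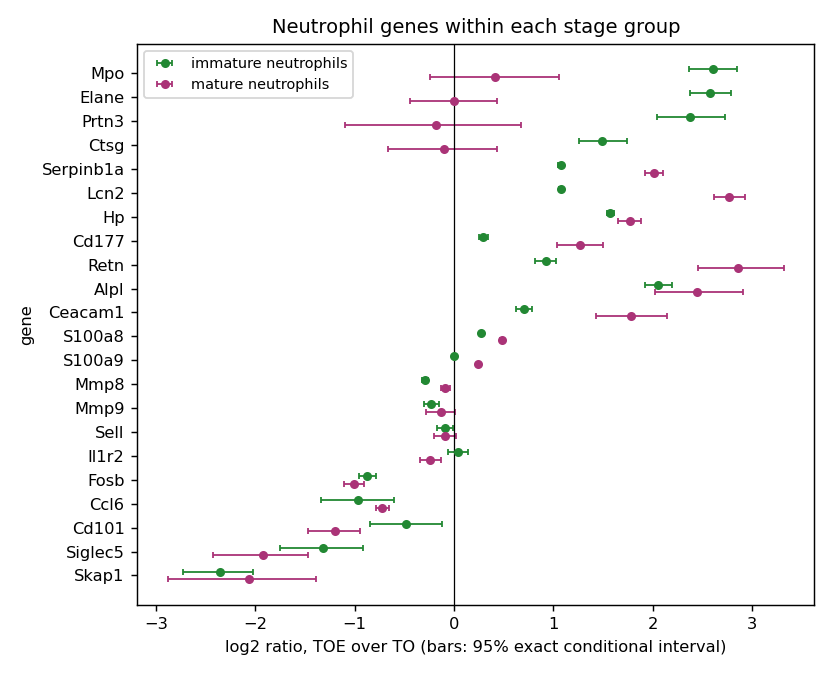
Log2 ratio of TOE over TO (horizontal axis) for neutrophil genes, given for immature and for mature neutrophils separately, with 95% exact conditional intervals for counting error. Lcn2, Hp, Alpl and Serpinb1a lie right of 0 in both stages, Skap1 and Siglec5 left of 0 in both, and Mpo and Elane are separated from 0 only in immature cells.

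Several genes were lower in TOE neutrophils at both stages. Skap1, an adaptor in integrin signalling, was at 45.8 and 9.62 (log2 -2.25) over all neutrophils, and its log2 ratio was -2.36 in immature and -2.06 in mature cells. Siglec5, a sialic acid receptor, was at 39.9 and 11.7, Cd101, an inhibitory receptor of mature cells, at 75.5 and 29.2, and the chemokine Ccl6 at 549.6 and 256. Siglec5, Cd101 and Ccl6 in TOE lay below all 6 other libraries. Of the genes the fixed rule named, Rbpms2, an RNA-binding protein, had 4 and 132 UMIs and Mfap3l had 5 and 54. Ncam1, an adhesion molecule, had 52 and 2 (log2 -4.13, interval -7.52 to -2.51). Prg3, an eosinophil granule protein, had 10 and 101 UMIs, 89.1% of them in 1 cell. The unnamed loci LOC300024 (758 and 2 UMIs) and RGD1566006 (929 and 35) also varied between the other libraries, from 0.258 to 49.6 and from 0.944 to 176 CPM.

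B cells (median 5088 UMIs a cell in TO and 4437 in TOE) were the largest class. Of 15538 genes measured, 301 (1.94%) were at least 2-fold higher in TOE and 144 (0.927%) at least 2-fold lower. Among 7102 abundant genes that no cell dominated, 50 (0.704%) were wholly past 1.5-fold higher and 36 (0.507%) wholly past 1.5-fold lower. Genes of pro-B and pre-B cells, the stages that rearrange the antibody genes, had a median of 0.03, equal to the 0.03 over all genes. Mature B genes had a median of -0.14, with Bank1, a signalling scaffold, at 137 and 98.7 CPM and Fcmr, the IgM receptor, at 81.8 and 112. Igll1 of the former list and Ms4a1 of the latter were also markers that set the class, so the lists are not independent of it. Pro-B cells were 4.07% and 3.76% of the class, pre-B cells 33.2% and 34.5%, and mature B cells 13.9% and 13.5%. With every cell reduced to 1000 UMIs, which left out 67 and 49 cells, pre-B cells were 19.4% (95% interval 18.4% to 20.4%) and 25.6% (24.6% to 26.7%), pro-B cells 1.94% and 1.502%, and mature B cells 8.94% and 8.35%.

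Proliferation genes were lower in TOE B cells. Of 26 cell cycle genes 24 were lower, none by 2-fold, with a median of -0.22. The centromere protein Cenpf was at 238 and 149, topoisomerase Top2a at 460.1 and 295, the proliferation marker Mki67 at 677 and 470, and the spindle checkpoint kinase Bub1 at 143 and 105. Cenpf and Top2a in TOE lay below all 6 other libraries. B cells with Mki67 or Top2a present were 28.2% of TO B cells (95% interval 27.1% to 29.3%) and 22.5% of TOE B cells (21.5% to 23.5%), and at 1000 UMIs a cell 13.6% and 8.65%. With these cells left out, the median of the list was 0.05.

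Heat shock chaperones, which refold damaged proteins, were higher for 15 of 15 in TOE B cells, none at least 2-fold, with a median of 0.24. Hspa1b was at 145 and 254, Hspa1a at 275 and 440.5, Bag3, a co-chaperone, at 14.8 and 23.7, and Hsp90aa1 at 2974 and 4019. For these 4 genes both libraries of the pair exceeded the 6 others, of which the highest Hspa1b value was 58.2. The same list had medians of -0.22 in neutrophils, -0.11 in monocytes, -0.31 in T cells, 0.09 in endothelium and 0.54 in macrophages.

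Class II histocompatibility genes, used to present peptides to T cells, were higher for 7 of 10 in TOE B cells, with a median of 0.50 and a sum of 1302 and 1593. RT1-Bb was at 4.58 and 15.98, the peptide loading chains RT1-DMa at 17.1 and 37.6 and RT1-DMb at 12.1 and 21.6, and RT1-DOa at 2.05 and 3.18. In the other libraries RT1-DMa ran from 10.1 to 44.4. Outside the B cells RT1-DMa was at 150.2 and 276 and RT1-DMb at 75.1 and 129.6, and the monocyte markers in B cells moved with them, at 744 and 1492 CPM. The part of free RNA in these values was not tested. The RT1 genes are highly variable between rats, and reads of near-identical members can be split between them.

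Single genes with wide differences in B cells included Slc24a3, a sodium and calcium exchanger, at 78.8 and 10.5 (log2 -2.91, interval -3.05 to -2.77), and Zc3h12b, of a ribonuclease family, at 53.4 and 18.8. The TO levels of both were above the 6 other libraries. Meg3, a long non-coding RNA, was at 13.9 and 47.7, above the 11.4 to 17.4 elsewhere. Hp (16.6 and 56.0), Vcan (11.8 and 44.1) and S100a4 (48.5 and 139) are genes of myeloid cells. Their levels outside the B cells were 227 and 650.0 for Hp, 347 and 685 for Vcan, and 932 and 1705 for S100a4. The 10 monocyte markers summed to 744 CPM in TO B cells and 1492 in TOE B cells, none at 0, and to 7197 and 13696 over the whole libraries. The part of free RNA in these differences was not tested.

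Bone matrix genes stood among those that the rule named in TOE B cells, each with most of its UMIs in 1 cell. Dmp1 had 2 and 528 UMIs with 95.5% of them in 1 cell, Mepe, another osteocyte protein, 1 and 49 with 91.8%, and Ibsp, bone sialoprotein, 34 and 794 with 68.1%. The mesenchymal markers summed to 376 CPM in TO B cells and 749.9 in TOE B cells. Tfap2d, a transcription factor, had 2 and 56 UMIs, 96.4% of them in 1 cell, and Rhox5 had 4 and 72. Lower were Asb15, a substrate adaptor of ubiquitin ligases, with 110 and 2 UMIs, and LOC300024 with 72 and 2.

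Macrophages were few, 112 and 125 cells, and shallower in TOE, with medians of 5276 UMIs a cell in TO and 2784 in TOE. The 10 markers summed to 9287 and 12228 CPM and did not share 1 direction. The complement subunits C1qa (3124 and 4194), C1qb (2024 and 3189) and C1qc (1795 and 2761) and also Cd5l (93.9 and 315) were higher in TOE. Lower were Cd163 (359 and 322), Mrc1 (921 and 665), Slc40a1 (463 and 368) and Adgre1 (223 and 137). Axl (280 and 275) and Vsig4 (4.27 and 2.37) were lower too. Of 5458 genes measured, 96 (1.76%) were at least 2-fold higher and 143 (2.62%) at least 2-fold lower. Among 5147 abundant genes that no cell dominated, 38 (0.738%) were wholly past 1.5-fold higher and 74 (1.44%) wholly past 1.5-fold lower.

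Cd5l, a secreted protein of tissue macrophages, was at 93.9 in TO and 315 in TOE, inside the 137 to 381 of the other libraries for TOE and below it for TO. Lgals1, the lectin galectin 1, was at 167 and 529, Fabp4, a fatty acid carrier, at 726 and 1511, and the metal-binding Mt1 at 67.2 and 215. The Lgals1 difference was not particular to macrophages, as it was higher in TOE in all 6 classes, with a lowest log2 ratio of 0.18. Sdc1 was at 8.54 and 58.2, and the cytokine receptor Tnfrsf12a at 12.8 and 46.3, both above all other libraries in TOE. Glycolysis and hypoxia genes were higher for 13 of 18 with a median of 0.43, with Vegfa, the endothelial growth factor, at 23.5 and 58.2, Ldha at 126 and 279 and Eno1 at 117 and 223, while Hk2, hexokinase 2, was at 83.3 and 47.5. Heat shock chaperones were higher for 13 of 15 with a median of 0.54, and Hspa1b was at 1874 and 3157. When every macrophage was given equal weight the chaperone median was -0.00, so its direction rested on the cells with more UMIs.

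NF-kB and inflammatory genes were lower in TOE macrophages for 16 of 21, with a median of -0.24. The neutrophil markers in macrophages moved with them, at 4327 CPM in TO and 2181 in TOE, with 2 and 1 of 10 at 0, and their part in these values was not tested. Tnfaip2 was at 41.6 and 15.4, the survival protein Birc3 at 367 and 199 and the NF-kB cofactor Bcl3 at 60.8 and 35.6. Nos2 was at 71.5 and 32.1, with 50.7% of its UMIs in 1 cell. Ier3, a single member of the immediate-early list that does not stand for the list, was at 701 and 319. The list of macrophage inflammatory genes had a median of -0.28 over 10 genes, and was 0.00 without cycling cells. Macrophage repair genes had 8 of 15 higher and a median of 0.03. Within that list Lyve1, a hyaluronan receptor of resident macrophages, was at 56.6 and 11.9 (log2 -2.20, interval -3.39 to -1.26), and Mrc1, the mannose receptor CD206, at 921 and 665. The matrix protein Fn1 was at 28.8 and 57.0 and Cd36 at 32.0 and 62.9, with single cells giving 31.2% and 28.3% of their UMIs. With any UMI of a marker taken as presence, the log2 ratio of Fn1 turned to -1.68.

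The named genes with the widest ratios in macrophages rested on few UMIs. Carmil1, a regulator of actin capping, was at 80.1 and 13.1 CPM, with TO above and TOE below all 6 other libraries. The heme and choline transporter Flvcr2 was at 49.1 and 5.94 and the transcription factor Hivep3 at 50.2 and 8.31. The chemokine Ccl12 was at 7.47 and 59.4, and Cideb, a lipid droplet protein, at 7.47 and 57.0. Cideb was at least 2-fold higher in TOE in all 4 classes in which it was measured. One cell gave 83.3% of the UMIs of Ppp1r13l, 63.8% of Kcnk10, 95.2% of Mcpt9, 82.8% of Stfa2l3 and 32.1% of the protease Adamts3.

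**Figure D4:**
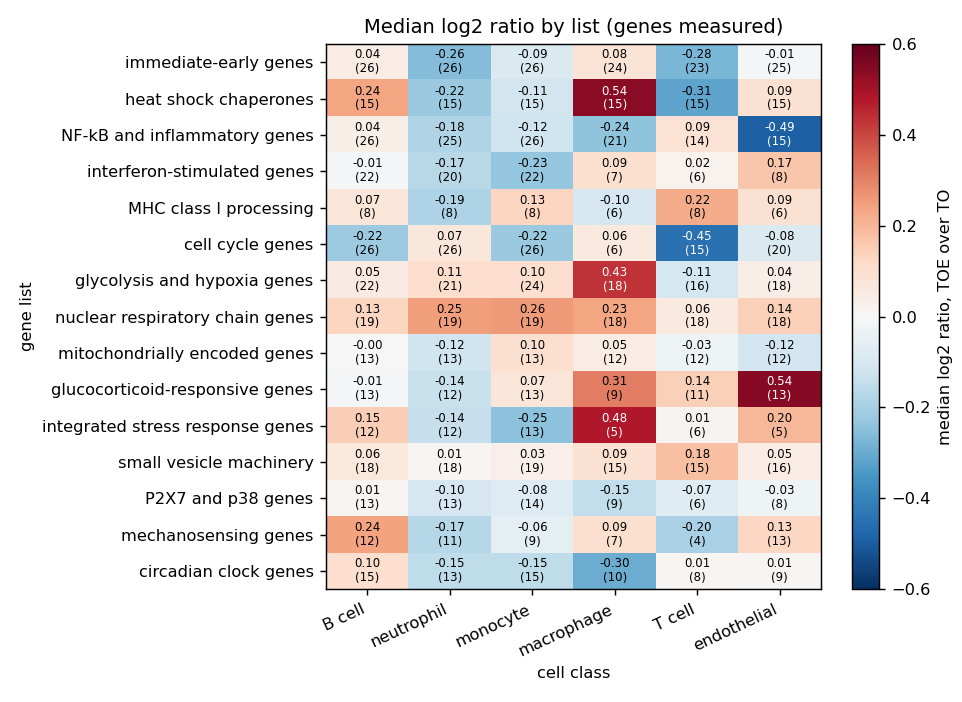
Median log2 ratio of TOE over TO for 15 gene lists (rows) in the 6 described classes (columns), with the number of genes measured in parentheses and colour from blue (lower in TOE) to red (higher). Heat shock chaperones run from -0.31 in T cells to 0.54 in macrophages, and NF-kB and inflammatory genes from -0.49 in endothelium to 0.09 in T cells.

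T cells (62 and 122 cells, medians of 8176 and 7704 UMIs) had 5322 genes measured, of which 71 (1.33%) were at least 2-fold higher in TOE and 90 (1.69%) at least 2-fold lower. Without genes that owed over 20% of their UMIs to 1 cell, the counts were 51 and 32. Among 5039 abundant genes that no cell dominated, 16 (0.318%) were wholly past 1.5-fold in each direction. Immediate-early genes were lower for 20 of 23, with a median of -0.28. The neutrophil markers in T cells moved with them, at 21800 CPM in TO and 11578 in TOE. Their part in these values, and in that of Ccl4 below, was not tested. Nr4a1, induced by antigen receptor signalling, was at 464 and 217 (log2 -1.10, interval -1.35 to -0.85), Jun at 989 and 555, Atf3 at 54.4 and 17.9 and Klf4 at 130.002 and 68.9. The TO levels of Nr4a1 and Jun were above all 6 other libraries. Heat shock chaperones were lower for 13 of 15 (median -0.31), with Dnajb1 at 373 and 226 and Hspd1 at 535 and 357, and cell cycle genes had a median of -0.45 over 15 genes, or -0.14 without cells with high doublet scores.

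Genes of naive T cells were higher for 6 of 8, none at least 2-fold, with a median of 0.17. The transcription factor Tcf7 was at 345 and 521, above the 245 to 468 of the other libraries, Satb1 at 733 and 1075, and Lef1 at 562 and 734. Bach2, a repressor that restrains effector differentiation, was at 438 and 848 (log2 0.95), and Ifngr1, a chain of the interferon gamma receptor, at 243 and 465. For both, the TO level was below all 6 other libraries. Tbc1d4, a regulator of glucose transporter traffic, was at 46.9 and 140. Effector and regulatory genes were higher for 11 of 14 and lower for 3. The lower ones were Nkg7, of cytotoxic granules, at 233 and 97.2, Prf1, perforin, at 69.5 and 35.8, and the chemokine Ccl4 at 691 and 315. Among the higher ones Ctla4, an inhibitory receptor, was at 36.3 and 82.1, the costimulatory receptor Icos at 255 and 389, and the chemokine Ccl5 at 242 and 369.8. The median of that list was 0.28, and it was -0.04 when each cell was given equal weight.

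Most of the named genes with wide ratios in T cells were neutrophil genes. The defensins RatNP-3b (9983 and 266 CPM), Defa5 (5161 and 218) and Np4 (4388 and 211) were higher in TO, and a single cell gave 57.6%, 47.2% and 43.1% of their UMIs. Lcn2 (55.9 and 436) and Ngp (278 and 1637) were higher in TOE, with 35.3% and 33.6% in 1 cell. The 10 neutrophil markers summed to 21800 CPM in TO T cells and 11578 in TOE T cells, with 3 and 0 at 0. Without the cells with high doublet scores, the log2 ratio of Ngp was -0.19. The 2 named genes with the highest ratios of TOE over TO rested mainly on 1 TOE cell each. The locus LOC120095302 had 0 and 58 UMIs, with 96.6% of them in 1 cell, and the mast cell protease Cma1 2 and 101, with 99.01% in 1 cell.

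Endothelial cells (69 and 72 cells, medians of 15346 and 15531 UMIs) had 7401 genes measured, of which 203 (2.74%) were at least 2-fold higher in TOE and 118 (1.59%) at least 2-fold lower. Among 6775 abundant genes that no cell dominated, 63 (0.93%) were wholly past 1.5-fold higher and 44 (0.649%) wholly past 1.5-fold lower. TOE lay above all 6 other libraries for 29 of the 63 and below them for 6 of the 44, and TO lay below them for 17 of the 63 and above them for 30 of the 44. Here too the same counts over all 6775 genes were not taken, and nothing is read from them. The pan-endothelial markers did not share 1 direction. Cdh5, the adhesion molecule of endothelial junctions, was at 566 and 509 and the VEGF receptor Kdr at 413 and 404. Flt1 (1872 and 1742) and Eng (734 and 691) were also lower in TOE. Higher were Emcn, endomucin (569 and 618), Pecam1 (843 and 1009) and Tie1 (212 and 241). So were Tek (214 and 316), Egfl7 (212 and 349) and Esam (271 and 342).

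Arterial genes were higher in TOE for 9 of 9, 3 of them at least 2-fold, with a median of 0.76 against 0.06 over all genes measured. The gap junction connexins Gja5 and Gja4 were at 7.26 and 92.9 and at 76.2 and 176 CPM, the chemokine Cxcl12, which retains blood stem cells in the marrow, at 87.8 and 187, and Hey1, a Notch target, at 21.1 and 37.6. Of the Gja5 UMIs 33.1% came from 1 cell. Their TOE levels, other than that of Hey1, lay inside the range of the other libraries, which for Gja4 was 3.82 to 311. Sinusoidal genes were higher for 5 of 7 with a median of 0.71, or 0.14 without cycling cells, with the chemokine scavenger Gpr182 at 24.7 and 55.3 and the scavenger receptor Stab1 at 54.4 and 118. Lyve1 (56.6 and 108) and Stab2 (39.2 and 64.5) had 42.9% and 36.9% of their UMIs in 1 cell. Stab1 and Lyve1 are also macrophage genes, and the macrophage markers summed to 55.9 and 169.8 CPM in these cells, with 2 and 1 of 10 at 0. The mesenchymal markers summed to 171 CPM in TO endothelial cells and 744 in TOE endothelial cells, with 1 and 0 of 10 at 0. Their part in the values of genes that stromal cells also express, such as Cxcl12, was not tested.

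Genes of sprouting and matrix building were divided. Of 13 angiogenesis genes 8 were lower, 3 at least 2-fold, and 5 higher, with a median of -0.29. Apln, the ligand apelin made by tip cells, was at 254 and 60.7, with 45.4% of its UMIs in 1 cell, and its receptor Aplnr at 113 and 49.2. Angpt2, which loosens vessel walls, was at 134 and 74.5, and both libraries exceeded the 7.94 to 43.9 of the others. Esm1 was at 175 and 8.45, with 85.1% in 1 cell. Nos3, the endothelial nitric oxide synthase, was at 100.2 and 155, and the semaphorin and VEGF receptor Nrp1 at 405 and 548. Basement membrane genes were lower for 7 of 12 and higher for 5, with a median of -0.23 and nearly equal sums of 13740 and 13161 CPM. Among them was Col15a1, a collagen of vessel basement membranes, at 728 and 188 (log2 -1.95, interval -2.16 to -1.75). The laminin chains Lamb1 (177 and 82.2) and Lamc1 (870.4 and 623) and the laminin-binding Nid2 (155 and 89.1) were also lower, while Nid1 was at 262 and 344 and Col18a1 at 674 and 845. The TO levels of these 4 matrix genes were above all 6 other libraries.

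Endothelial NF-kB genes were lower in TOE for 10 of 15, with a median of -0.49. The neutrophil markers in endothelial cells moved with them, from 6314 CPM in TO to 1654 in TOE, and their part in these values was not tested. Tnfaip3, the feedback inhibitor A20, was at 209 and 79.9 and Nfkbiz at 290.4 and 164, while the chemokine Cxcl2 was at 63.2 and 105. Ccl3 was at 74.0 and 30.0, with 81.4% of its UMIs in 1 cell. The adhesion selectins were split, with Selp at 39.2 and 131 and Sele at 92.2 and 36.1. Vwf, the platelet-binding von Willebrand factor, was at 65.3 and 144, and Edn1, the vasoconstrictor endothelin 1, at 38.5 and 18.4. The TO levels of Selp and Vwf were below all 6 other libraries, and the TOE level of Sele was below them too.

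The water channel Aqp1 was at 137 and 482 (log2 1.81, interval 1.58 to 2.06), above the 86.4 to 386 of the other libraries. Klf2, induced by blood flow, was at 298 and 522, and the nuclease Dnase1l3 at 30.5 and 114. The growth factor Igf2, also a stromal gene, was at 4.36 and 86.0, and the mesenchymal markers moved with it. The transcription factor Sox18 was at 145 and 48.4, and Prnd at 118 and 27.7. Glucocorticoid-responsive genes were higher for 10 of 13 with a median of 0.54.

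**Figure D5:**
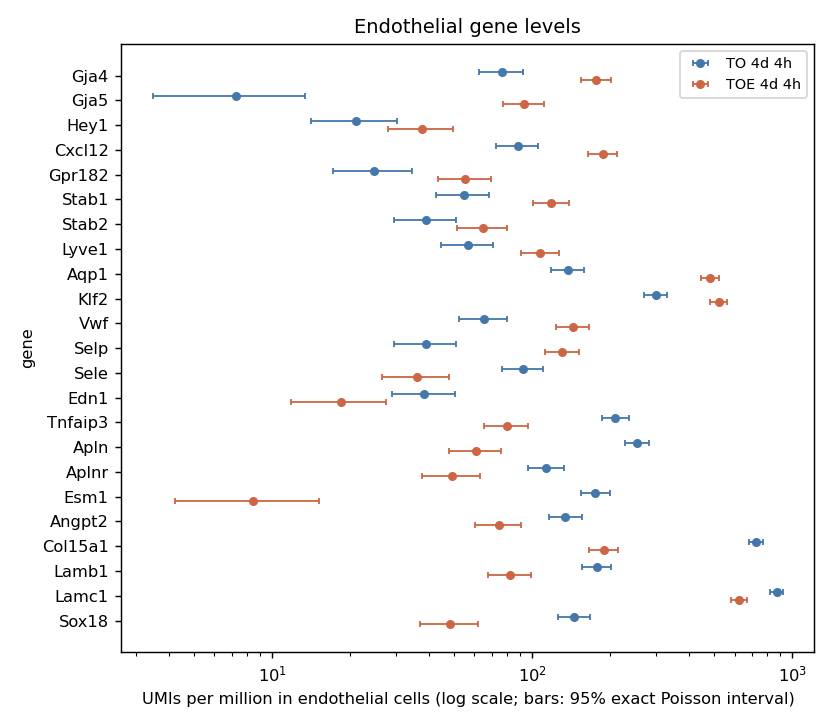
Levels of 23 endothelial genes in TO 4d 4h and TOE 4d 4h (horizontal axis, CPM in endothelial cells, log scale), with 95% exact Poisson intervals for counting error. Gja5, Gja4, Cxcl12 and Aqp1 are higher in TOE, and Apln, Esm1, Col15a1 and Lamb1 are higher in TO.

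Genes of mural cells, the contractile cells that wrap vessels, were among the named genes with the largest ratios in endothelium. Notch3 had 0 UMIs in TO and 72 in TOE, with a lower end of the log2 interval at 4.33. Pde3a had 1 and 86 UMIs, Gucy1a2 1 and 78 (log2 5.79, interval 3.85 to 11.69) and Rgs5 1 and 74. A single cell gave 33.3% to 52.8% of the UMIs of these 4 genes. The locus LOC120100926, with a ratio second to that of Notch3, had 0 and 53 UMIs, 88.7% of them in 1 cell. The mural markers summed to 241 CPM in TO endothelial cells and 702 in TOE endothelial cells, with 3 and 0 of 10 at 0, while mural cells themselves were 20 in TO and 7 in TOE. Foxp2 had 57 UMIs in TO, all in 1 cell, and 0 in TOE. Gna14 (58 and 3 UMIs) and Tll1 (169 and 17) had 65.5% and 39.1% of their UMIs in 1 cell. The part of attached or free RNA of these cells in the endothelial values was not tested.

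The study asked which cells could release small extracellular vesicles, and proposes mesenchymal cells as the likely source. It drew on a higher mesenchymal share after shock waves and on marker expression multiplied by cell number. It also counted vesicles from stimulated marrow mesenchymal cells in culture, and saw no clear pattern in marker levels across cell types. The levels below are RNA per class, a different measure. In this pair the mesenchymal shares were 1.29% in TO and 1.28% in TOE. The vesicle marker genes were read in the 6 described classes and in mesenchymal cells. The tetraspanin Cd63 had log2 ratios of 0.57 in B cells, 0.48 in neutrophils, 0.72 in monocytes, 0.51 in macrophages and 1.00 in endothelium, against -0.74 in T cells. In monocytes Cd63 was at 259 and 428 CPM and in endothelium at 229 and 460.1. In each of these 6 classes both Cd63 levels lay inside the range of the 6 other libraries. In mesenchymal cells Cd63 was at 943 and 1613 (log2 0.77) and Cd9 at 198 and 357 (log2 0.85). Both mesenchymal TO levels were below all 6 other libraries. The mesenchymal log2 ratios of Cd81, Tsg101, Rab27a, Flot1 and Flot2 ran from 0.14 to 0.30. Cd9 was lower in B cells (-0.47), neutrophils (-0.27) and monocytes (-0.43), higher in macrophages (0.94), and at 483 and 475 in endothelium. In T cells its log2 ratio was 0.52 with an interval of -0.06 to 1.16, and both levels were below all 6 other libraries. Cd81 ran from 0.09 in macrophages to 0.57 in T cells. Tsg101, of the vesicle-sorting complex, stayed between -0.15 and 0.29. The log2 ratios of Rab27a, Flot1 and Flot2 ran from -0.11 to 0.37 in B cells, neutrophils and endothelium, and in monocytes Flot2 was at 79.6 and 122 and Rab27a at 80.4 and 63.0 (log2 -0.35). In T cells Flot2 was higher (17 and 80 UMIs, log2 1.52, interval 0.79 to 2.40) and Flot1 lower (63 and 46 UMIs, log2 -1.13, interval -1.72 to -0.56). In macrophages Flot2 was lower (41 and 19 UMIs, log2 -0.94, interval -1.82 to -0.14). The whole list of small vesicle machinery had medians between 0.01 and 0.18 in the 6 classes. Thbs1 was 4.34-fold higher in monocytes, at 2.36 and 2.72 in B cells, 13.6 and 15.5 in neutrophils and 111 and 116 in endothelium. In mesenchymal cells, with the highest levels, it was lower in TOE, at 637 and 265 (log2 -1.26, interval -1.36 to -1.17). The mesenchymal TO level lay above and the TOE level below the 271 to 484 of the other libraries.

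Few genes differed by at least 1.5-fold one way in every class. Of 4119 genes measured in all 6 classes, 7 were at least 1.5-fold higher in all or lower in all. RT1-A3, a class I histocompatibility gene, was higher, at 88.6 CPM in all TO cells and 206 in all TOE cells. The mitochondrial ribosomal RNAs mt-Rnr1 (3384 and 1434) and mt-Rnr2 (12137 and 5720) were lower, and both TOE levels lay below all 6 other libraries. The 13 mitochondrially encoded protein genes had medians between -0.12 and 0.10. Fam111a, a protease active at replication forks, was at 504 and 212, and the remaining 3 were the loci LOC120094738, RGD1564606 and LOC100360413. RT1-A3 varied between the other libraries from 43.3 to 186 and Fam111a from 36.0 to 477.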

How the data were processed

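Fresh tissue of the tibial osteotomy site was profiled by the study with 10x Genomics Chromium libraries, 1 per condition. The authors deposited counts: UMIs per gene and barcode, not normalized, for 41801 genes. The submitters' processing notes name Cell Ranger 9.0.0 and the builds mRatBN7.2 and GRCh38 without their roles, and the counter's settings are not given in the sources used here. No column of other samples was present, the number of such columns being 0. TO_2d_24h was not analysed here.

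The filter required 200 or more genes a cell and a mitochondrial share of UMIs no higher than 20%. A marker was present in a cell when its UMIs exceeded the 99th percentile of a Poisson count with a mean of 10% of the cell's UMIs times the gene's share of the library. A cell joined the class with the largest share of its 10 markers present (Vpreb1 and Mcpt1 were not among the listed genes), with at least 3, and ties were unassigned (1.12% and 1.14% of cells). UMIs were summed per class, and genes with at least 50 UMIs over the pair were measured. Log2 ratios used a prior of 0.5 UMI. Shares have Clopper-Pearson intervals, levels exact Poisson intervals and ratios exact conditional intervals, all at 95%. Python 3.11.15, numpy 2.4.6, scipy 1.17.1 and, for Scrublet doublet scores, scanpy 1.11.5 were used. Scrublet's automatic threshold marked 2 TO cells and 326 TOE cells, too few in TO to be relied on, so doublets were kept, and leaving out scores over 0.25 (489 and 546 cells) was an alternative. The fold and interval calculation was tested on simulated data.

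The members and the 34 gene lists were chosen with earlier results of these data known, and many were read in classes for which they were not made. Named genes were, in each class, the 5 with the largest and the 5 with the smallest ratio among those with intervals wholly past 2-fold, up to 4 members of each described list with the largest absolute ratio, the class markers and the small vesicle markers. Genes at 20 or more CPM, with no cell over 20% of the UMIs and an interval past 1.5-fold, were selected by a rule added after the values were seen, and the genes described from them and those named as examples outside the fixed rule were picked then too. Alternatives varied the marker rule, cell filter, depth, doublets, scaling, weight of cells, minimum UMIs and prior.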

Additional observations from a re-analysis of the deposited data

Results flagged for a closer look

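For 5 classes the TOE over TO ratio of the share lay on opposite sides of 1 in this pair and another matched pair, each of 1 library a side, with both 95% counting intervals off 1, and none of these differences was tested. The neutrophil ratio of TOE over TO was 0.597 at day 4, 4 h and 1.66 at day 4, 24 h. The monocyte ratio was 1.74 at day 4, 4 h, 0.838 at day 2, 4 h and 0.612 at day 4, 24 h. The T cell ratio was 1.82 at day 4, 4 h and 0.137 at day 4, 24 h, and the ratio of NK cells, cytotoxic lymphocytes, was 1.77 (23 and 44 cells) and 0.309. The myeloid progenitor ratio was 0.806 at day 4, 4 h (interval 0.665 to 0.978) and 1.17 at day 2, 4 h (1.003 to 1.366).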

How the results depend on the processing

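No paired analysis was possible because the day 4, 4 h comparison held 1 library a side and no result came from a test. Of 99 class shares under the alternatives 96 moved by less than their counting interval, as did 11 of 14 stage shares. The exceptions were, at 1000 UMIs a cell, B cells (ratio 1.11), monocytes (1.51), pre-B cells (1.32), cycling B cells (0.638) and cycling neutrophils (0.808), and neutrophils with any UMI taken as presence (0.697). Of 272 list medians 248 moved by under 0.2, and 19 changed sign, 7 of them with a shift of over 0.2. Without cycling cells, a choice made after the data were seen, the medians were 0.047 for B cell cycle genes, 0.304 for neutrophil primary granules, 0.259 for macrophage chaperones, 0.0026 for macrophage inflammatory genes, 0.031 for T effector genes, and 0.508 and 0.137 for arterial and sinusoidal genes. With each cell given equal weight they were 0.396 for neutrophil primary granules, -0.0015, -0.553, 0.288 and -0.314 for macrophage chaperones, NF-kB, repair and immediate-early genes, and -0.529, -0.042 and -0.143 for T immediate-early, effector and NF-kB genes. With high doublet scores left out they were 0.305 for monocyte primary granules and -0.143 for T cell cycle genes. With at least 4 markers a cell the neutrophil primary granule median was 1.06. In immature and mature neutrophils, also chosen after seeing the data, medians were 1.57 and 1.31 for primary granules and 0.25 and -0.403 for NF-kB genes. The secondary granule median was 1.02 in mature cells and that of mature genes -0.194 in immature cells. Counts past 2-fold (higher, then lower in TOE) depended on the minimum of UMIs: at 20 UMIs 596 and 299 in B cells, 256 and 425 in neutrophils, 407 and 496 in monocytes, 313 and 353 in macrophages, 273 and 294 in T cells and 577 and 272 in endothelium, and at 100 UMIs 179 and 85, 58 and 124, 142 and 168, 32 and 64, 18 and 35, and 95 and 69. With cells weighted equally 284 were higher in neutrophils and 109 in T cells, with 287 and 418 in macrophages and 508 and 200 in endothelium. With any UMI as presence 204 were higher in neutrophils. Without genes that owed over 20% to 1 cell, 32 were lower in T cells, and 104 and 54 remained in number in endothelium. Of 1905 values of single genes 1730 stayed within their counting interval, 172 moved outside it with the same sign, and 3 changed sign: Chordc1 (-0.27 with equal weights) and Fn1 (-1.68 with any UMI as presence) in macrophages, and Ngp in T cells (-0.19 without high doublet scores). The cause of these shifts was not tested. Macrophages, T cells and endothelium held too few UMIs to measure most genes of the genome.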

Other observations

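Smaller classes also differed in share between the libraries. Mast cells or basophils, the histamine-storing granulocytes, were 0.844% of TO cells (109) and 0.452% of TOE cells (63), a ratio of 0.535 with a 95% interval of 0.386 to 0.736. Mural cells were 0.155% and 0.0502% (20 and 7 cells), and megakaryocytes, which make platelets, 0.0697% and 0.165% (9 and 23 cells). Osteoclasts, which resorb bone, were 0.194% and 0.315% (25 and 44 cells, ratio interval 0.975 to 2.78). Myeloid progenitors were 1.80% and 1.45%, and the TOE share was the lowest of the 8 libraries. Plasmacytoid dendritic cells, which make type I interferon, were 0.890% and 0.896%, both above the 0.435% to 0.840% of the other libraries. Erythroid cells were 4.02% and 4.41%.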
